A study of Mus musculus with 4 samples.

Results

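The circadian clock genes described here are Arntl, Clock, Per1, Per2, Per3, Cry1, Cry2, Nr1d1, Nr1d2 and Dbp, chosen by name from 18108 genes common to the count tables, and all 10 were found. Their UMIs (unique molecular identifiers, counts of captured transcripts) were read in 3 classes of cell from the mouse aorta, gated on a few marker genes. Smooth muscle cells had at least 5 UMIs of Myh11, a smooth muscle myosin, and 0 of Pdgfra, a fibroblast receptor. Fibroblasts had at least 1 UMI of Pdgfra and at most 2 of Myh11. Macrophages had at least 10 UMIs of C1qa, C1qb and Lyz2 together and fewer than 5 of Myh11.

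The mice were males of the Mef2c-mTmG strain, in which a membrane reporter separates the descendants of Mef2c-expressing cells from other cells, and living cells were sorted on that lineage before single-cell 3' RNA sequencing. SHF_Baseline holds second heart field cells of mice that received no infusion. SHF_AngII holds second heart field cells after 3 days of infusion of angiotensin II (AngII), a peptide hormone that constricts vessels. CNC_AngII holds the sorted cells labelled CNC (an abbreviation with no expansion in the labels) after the same infusion. The series compares the AngII response of second heart field cells with that of cells of other origins. A baseline library of the CNC cells was not analysed here. Age, number of animals, hour of harvest and whether both AngII libraries came from the same mice are not given in the sources used here. Each group has 1 library, so no difference below was tested. AngII, the hour of harvest, the making of the library and the gene annotation of the count tables cannot be told apart. Every interval is a 95% interval that covers counting error only.

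In the mammalian clock the proteins of Arntl (also called BMAL1) and Clock pair and switch on genes through E-boxes in their promoters. Among these genes are the Per and Cry repressors, which inhibit the pair, the nuclear receptors Nr1d1 and Nr1d2 (REV-ERB alpha and beta), which silence Arntl, and Dbp, a transcription factor of the PAR bZIP family that acts through D-boxes. In tissues with a running clock Arntl is therefore low at the hours when Dbp and Nr1d1 are high, and vascular smooth muscle is among the tissues known to keep such a rhythm.

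These elements were searched in windows from 250 bases before to 50 bases after gene starts, taken from RefSeq on GRCm38.p6. A window was found for 9 of the 10 genes, all but Per2. The stretches below were printed because they hold the elements through which the genes of the loop are known to act on each other. Capitals mark the match, and each stretch runs 5' to 3' on the strand of its gene. The E-box CACGTG, which reads the same on both strands, was found 166 bases before the start used for Per1 (this start lies inside the longer GENCODE gene), 60 bases before that of Cry1, and at 3 places before that of Ciart, a repressor of the same loop that is described with the other clock genes. Both D-boxes of Per3, searched as TTATGTAA or TTACGTAA on either strand, begin 205 and 158 bases before its start. The sequence AGGTCA, the core of the elements that REV-ERB and ROR receptors bind, begins at base 32 after the start of Arntl.
Per1 E-box, chr11:69098771-69098800, plus strand: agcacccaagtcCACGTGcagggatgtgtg
Cry1 E-box, chr10:85185097-85185126, minus strand: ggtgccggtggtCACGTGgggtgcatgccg
Ciart E-boxes, chr3:95882255-95882356, minus strand: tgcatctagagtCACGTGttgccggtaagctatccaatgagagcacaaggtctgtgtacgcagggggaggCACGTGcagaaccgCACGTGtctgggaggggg
Per3 D-boxes, chr4:151044804-151044882, minus strand: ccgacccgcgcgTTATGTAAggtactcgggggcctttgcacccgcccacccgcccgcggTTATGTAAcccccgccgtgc
Arntl AGGTCA, chr7:113207530-113207559, plus strand: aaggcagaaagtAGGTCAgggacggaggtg

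Among the 9 genes with a window the E-box was found in 2 (Per1 and Cry1) and the D-box in 1 (Per3). AGGTCA was found in 4 (Arntl, Clock, Per1 and Nr1d2). All 32851 RefSeq windows of this length, which belong to 27025 genes, were searched in the same way. Of these genes 8.09% hold the E-box in at least 1 window, 1.23% the D-box and 18.1% AGGTCA. The windows of Dbp and Nr1d1 hold none of these exact letters, which says nothing of sites elsewhere in the gene. A match is a description of the sequence, and binding was not measured.

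The libraries held 9412 barcodes with 92474476 UMIs (SHF_Baseline), 11166 with 147854476 (SHF_AngII) and 11098 with 150954701 (CNC_AngII). Between 8374 and 10194 cells per library passed the filters, with medians of 10315.5 to 13325 UMIs, and any 2 libraries shared 23 to 29 barcodes (at most 0.346% of a library). The smooth muscle gate held 2259, 4649 and 6385 cells and the fibroblast gate 3939, 2640 and 842, in the order SHF_Baseline, SHF_AngII and CNC_AngII, which is kept throughout. The macrophage gate held 8, 13 and 1764 cells, so macrophages could be read in CNC_AngII alone. The few cells in that gate of the SHF libraries also carried 10728 and 5366 CPM of 7 fibroblast markers (CPM, the UMIs of a gene per 1000000 UMIs of the class), against 120 CPM in CNC_AngII. The baseline table lists 18760 genes and each AngII table lists 32285, so the annotation behind the counts also differs between SHF_Baseline and both AngII libraries.

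Under AngII the activating pair of the clock was lower in both classes and Dbp was higher in both, whereas the repressors and nuclear receptors differed in part by class. In smooth muscle, 4 of the 9 clock genes with a mean of at least 5 CPM were past 1.5-fold in SHF_AngII over SHF_Baseline, Dbp higher and Arntl, Clock and Per1 lower. Of all 8856 genes tested there, 27.4% were past 1.5-fold, 8.93% higher and 18.5% lower, and of those between 5 and 100 CPM, the range of the clock genes, 27.8%. In fibroblasts 6 of 9 were past 1.5-fold, Dbp higher and Arntl, Clock, Cry1, Cry2 and Nr1d1 lower. Of all 9554 genes tested in fibroblasts 42.2% were past it, 11.3% higher and 30.9% lower, and of those between 5 and 100 CPM 42.8%. With 9 genes tested, these shares are close enough to the counts of the clock genes that the counts alone do not set the clock genes apart. The median log2 ratio of the clock genes tested was -0.52 in smooth muscle and -0.84 in fibroblasts, beside -0.13 and -0.26 for all genes tested.

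The levels of Arntl and Clock, the activating pair, separated the baseline library from both AngII libraries. In GENCODE M21 on GRCm38, which is also the build of the positions below, Arntl lies at chr7:113207465-113314126 on the plus strand and Clock at chr5:76209868-76304792 on the minus strand. Arntl stood at 21.4, 9.96 and 12.9 CPM in smooth muscle and at 25.8, 7.70 and 9.48 CPM in fibroblasts, with 14.4 CPM in CNC_AngII macrophages. Its log2 ratio of SHF_AngII over SHF_Baseline was -1.10 in smooth muscle (-1.26 to -0.95), a level 2.15-fold lower, and -1.74 in fibroblasts (-1.92 to -1.56), 3.35-fold lower. Both AngII libraries lay below the baseline library in both classes, and the counting intervals of the baseline levels did not reach those of any AngII level. Clock stood at 58.5, 33.1 and 33.0 CPM in smooth muscle, at 62.6, 24.9 and 23.1 CPM in fibroblasts and at 26.0 CPM in the macrophages. Its log2 ratio was -0.82 in smooth muscle (-0.91 to -0.73) and -1.33 in fibroblasts (-1.44 to -1.23). For both genes both baseline levels were the highest of the 7 combinations of library and class with at least 100 cells.

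**Figure D1:**
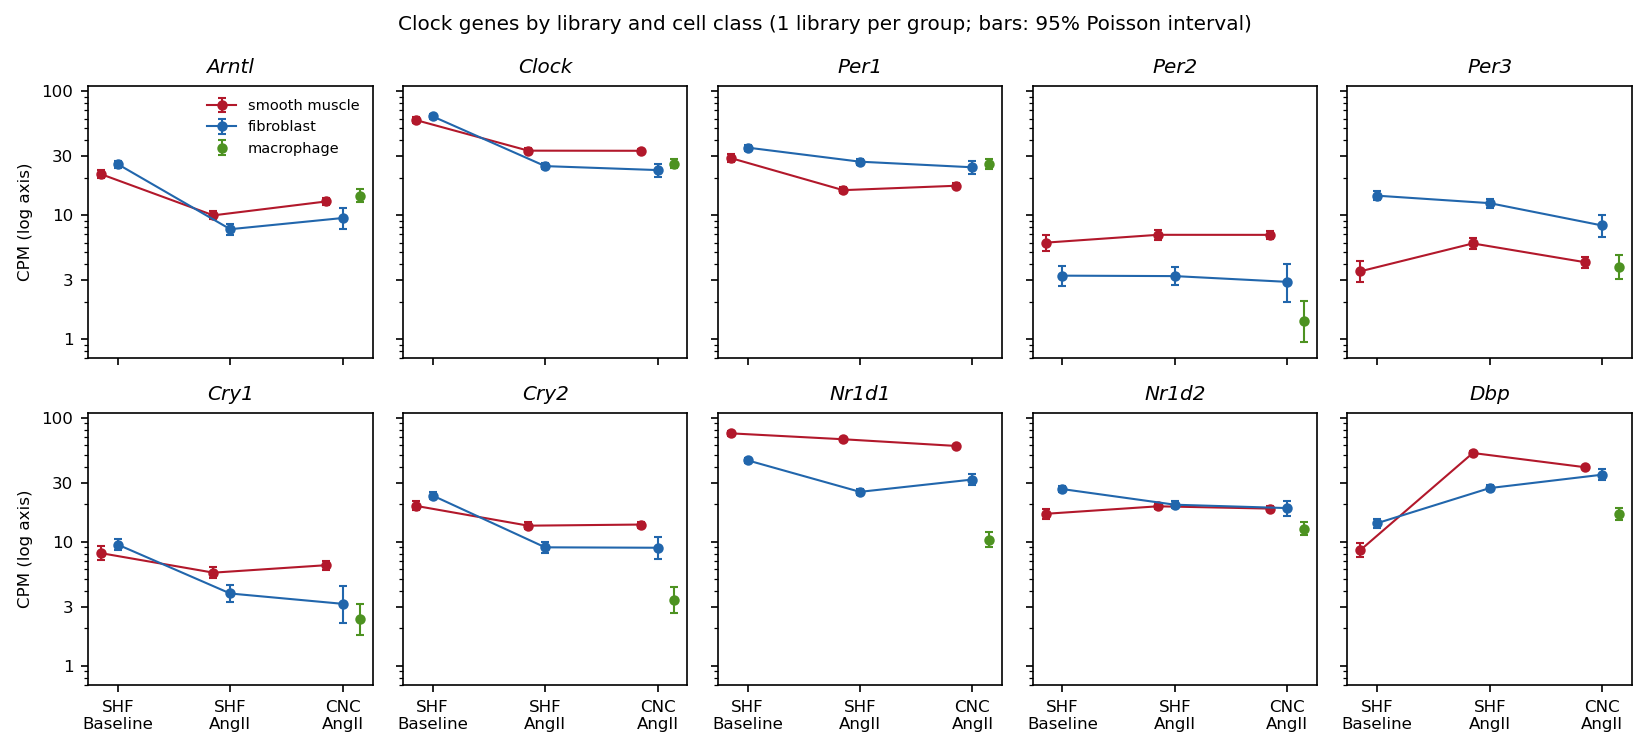
Level of each clock gene (CPM, log axis) by library in the smooth muscle, fibroblast and macrophage gates, with 95% counting intervals; each point is the sum over the cells of 1 library, and macrophages are shown for CNC_AngII only. Arntl and Clock are highest in SHF_Baseline in both classes, at 21.4 and 25.8 CPM and at 58.5 and 62.6 CPM, whereas Dbp is lowest there, at 8.58 and 14.1 CPM.

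Dbp (chr7:45705088-45710203, plus strand), the output of the loop, was higher past 1.5-fold in both classes. It stood at 8.58, 52.0 and 39.9 CPM in smooth muscle, at 14.1, 27.1 and 34.8 CPM in fibroblasts and at 16.8 CPM in CNC_AngII macrophages. The log2 ratio of SHF_AngII over SHF_Baseline was 2.60 in smooth muscle (2.42 to 2.79), a 6.06-fold difference, and 0.94 in fibroblasts (0.79 to 1.09), 1.92-fold. The order of the classes thus turned between libraries, since Dbp was higher in fibroblasts than in smooth muscle at baseline and lower in fibroblasts in both AngII libraries. In fibroblasts the size depended on depth per cell. With each cell of at least 2000 UMIs thinned to 2000, and other cells left out, the log2 ratio was 1.68. Thinning also gives each of these cells the same weight. Fibroblasts with fewer than 10000 UMIs had Dbp at 14.8, 53.5 and 49.8 CPM, and those with more at 13.8, 24.3 and 31.4 CPM. The median fibroblast had 9534 UMIs in SHF_Baseline and 15486 in SHF_AngII. Dbp shares exon sequence with Sphk2 on the opposite strand, as do Arntl with Gm45355 and Cry2 with D930015M05Rik, and whether the counting used strand is not given in the sources used here. Sphk2 itself stood at 12.4 CPM in SHF_Baseline and 13.8 CPM in CNC_AngII in smooth muscle, with SHF_AngII just below both, and at 8.48, 7.48 and 9.83 CPM in fibroblasts.

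The Per genes code for part of the repressor complex, and they did not move together. Per1, which is also induced by glucocorticoids and by cAMP signals, stood at 28.9, 15.9 and 17.3 CPM in smooth muscle and at 35.0, 27.0 and 24.3 CPM in fibroblasts. Its log2 ratio was -0.86 in smooth muscle (-0.99 to -0.73) and -0.38 in fibroblasts (-0.49 to -0.26), which is within 1.5-fold. Per2 stood at 6.0, 6.94 and 6.93 CPM in smooth muscle and at 3.25, 3.22 and 2.90 CPM in fibroblasts, where it was under the minimum. Neither of its log2 ratios, 0.21 (-0.04 to 0.47) and -0.01 (-0.37 to 0.35), had an interval without 0. Per3 stood at 3.53, 5.91 and 4.17 CPM in smooth muscle, under the minimum for the AngII comparison, and at 14.4, 12.5 and 8.25 CPM in fibroblasts. Its log2 ratio was 0.75 in smooth muscle (0.43 to 1.07) and -0.20 in fibroblasts (-0.37 to -0.03). Per3 reached the minimum in smooth muscle, and was then higher past 1.5-fold, under TMM scaling (0.92), with totals without mitochondrial and ribosomal protein genes (0.71), with no cell filter (0.69), as a mean of per-cell shares (0.86) and after thinning (1.07). The fibroblast value was above 0 under TMM scaling, at 0.07, and the smooth muscle value was below 0 at -0.09 under a stricter cell filter (1000 genes or more per cell and mitochondrial UMIs of 5% or less), which left 120 smooth muscle cells in SHF_Baseline.

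The cryptochromes, Cry1 and Cry2, which bind the activating pair and complete the repressor complex, were lower past 1.5-fold under AngII in fibroblasts and within 1.5-fold in smooth muscle. Cry1 stood at 8.10, 5.64 and 6.47 CPM in smooth muscle and at 9.49, 3.83 and 3.16 CPM in fibroblasts. Cry2 stood at 19.5, 13.5 and 13.8 CPM in smooth muscle and at 23.6, 9.02 and 8.95 CPM in fibroblasts. In smooth muscle the log2 ratios were -0.52 (-0.76 to -0.28) for Cry1 and -0.53 (-0.68 to -0.38) for Cry2, both within 1.5-fold. In fibroblasts they were -1.31 (-1.58 to -1.04) and -1.39 (-1.56 to -1.22), 2.48-fold and 2.62-fold lower. Under the stricter cell filter the smooth muscle values were 0.06 for Cry1 and -0.88 for Cry2. With 10 CPM added to both levels the fibroblast value of Cry1 was -0.49, within 1.5-fold.

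**Figure D2:**
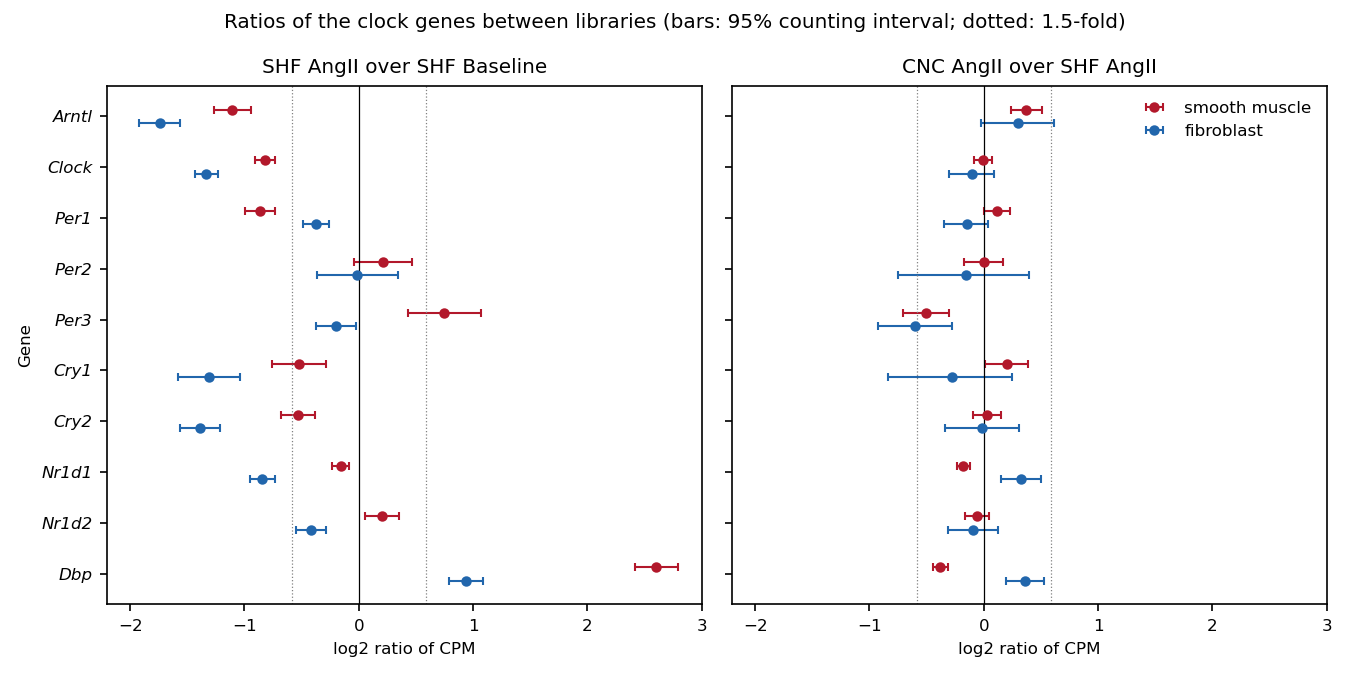
Log2 ratio of each clock gene in smooth muscle and in fibroblasts for SHF_AngII over SHF_Baseline and for CNC_AngII over SHF_AngII, with 95% counting intervals and 1.5-fold marked. In the AngII comparison Dbp lies at 2.60 and 0.94 and Arntl at -1.10 and -1.74, while in the comparison between the AngII libraries Per3 in fibroblasts, at -0.60, is the one value past 1.5-fold.

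Of the REV-ERB receptors, which feed back on Arntl, Nr1d1 was lower past 1.5-fold in fibroblasts, under some settings only, and Nr1d2 was within 1.5-fold in both classes. Nr1d1 (chr11:98767932-98775333, minus strand) stood at 74.9, 67.1 and 59.3 CPM in smooth muscle and at 45.4, 25.3 and 31.8 CPM in fibroblasts. Its log2 ratio was -0.16 in smooth muscle (-0.23 to -0.08), close to the -0.13 of the median gene, and -0.84 in fibroblasts (-0.95 to -0.74). The fibroblast value came within 1.5-fold under TMM scaling (-0.57), with cells thinned to 2000 UMIs (-0.56) and with cells of 5000 to 20000 UMIs (-0.56). Nr1d1 overlaps exons of Thra, a thyroid hormone receptor gene on the opposite strand, which stood at 228.8, 144.3 and 138.2 CPM in smooth muscle and at 111.7, 57.5 and 55.5 CPM in fibroblasts. Nr1d2 stood at 16.8, 19.3 and 18.5 CPM in smooth muscle and at 26.6, 19.9 and 18.7 CPM in fibroblasts. Its log2 ratio was 0.20 in smooth muscle (0.05 to 0.35) and -0.42 in fibroblasts (-0.55 to -0.29), both within 1.5-fold. In fibroblasts with fewer than 10000 UMIs the log2 ratio of Nr1d2 was 0.01 (-0.32 to 0.32). So in neither class were Nr1d1 and Nr1d2 past 1.5-fold in the direction of Dbp.

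A shift common to the classes was seen for a few of the genes. Of the 8 clock genes tested in both classes (all but Per2 and Per3), 7 had the same sign of the AngII ratio in smooth muscle and fibroblasts, as had 81.0% of the 8390 genes tested in both, and Nr1d2 did not. Past 1.5-fold in the same direction in both classes were 3 of the 8 (Arntl, Clock and Dbp), and 19.4% of all genes. With Per2 and Per3, the sign was the same for 7 of 10. The log2 ratio in fibroblasts minus that in smooth muscle had a counting interval without 0 for all 8, and for 62.6% of all genes. It was -0.64 for Arntl (-0.87 to -0.40), -0.51 for Clock (-0.65 to -0.37) and -1.66 for Dbp (-1.90 to -1.43). The median absolute difference between the classes over all genes was 0.25. These intervals hold no variation between animals or preparations.

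**Figure D3:**
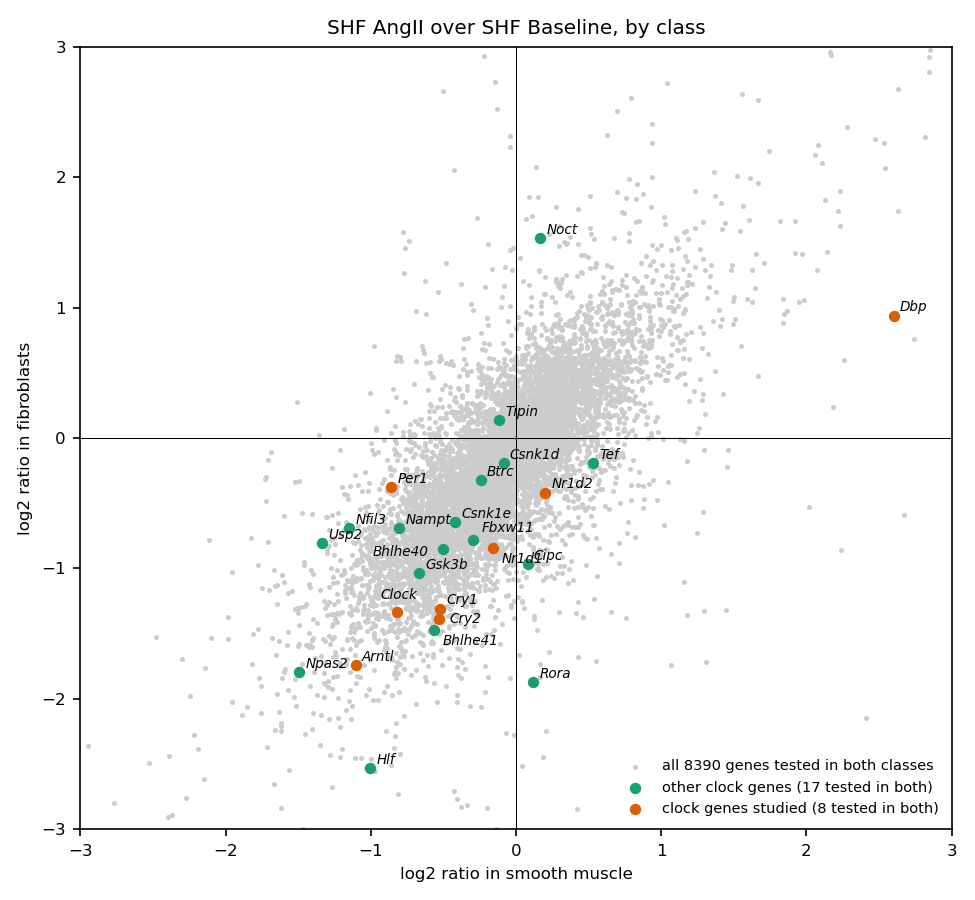
Log2 ratio of SHF_AngII over SHF_Baseline in smooth muscle (x axis) and in fibroblasts (y axis) for 8390 genes tested in both classes, with 8 of the clock genes and 17 other clock genes marked; 75 genes lie outside the axes. In the quadrant below 0 in both classes lie 6 of the 8 clock genes and 12 of the 17 others, beside 53.1% of all genes, and Dbp lies far to the right.

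The number of Dbp UMIs per Arntl UMI does not depend on the scaling of a library. It can still depend on the annotation of each gene, which differed between SHF_Baseline and both AngII libraries. That effect was not tested. Dbp had the highest and Arntl the lowest AngII ratio of the clock genes tested, in smooth muscle and in fibroblasts. That their quotient differs between SHF_Baseline and SHF_AngII in these classes was thus fixed in advance, and it is a description only. The quotient was lower in SHF_Baseline than in both AngII libraries in each group of cells given here that could be read in all 3. It was 0.400 (0.345 to 0.464), 5.22 (4.81 to 5.67) and 3.10 (2.90 to 3.31) in smooth muscle. In fibroblasts it was 0.549 (0.493 to 0.610), 3.52 (3.12 to 3.98) and 3.67 (2.96 to 4.58). Cells in no gate gave 0.616, 6.46 and 3.99, and CNC_AngII macrophages 1.17 (0.995 to 1.37). The macrophage ratio lay below those of the other classes of the same library. It lay above those of smooth muscle, fibroblasts and cells in no gate of SHF_Baseline, where macrophages could not be read. Groups of cells chosen after the data were seen, from the same libraries, also had their lowest value in SHF_Baseline, while the order of the AngII libraries varied. Fibroblasts with at least 3 UMIs of Pi16, a marker of adventitial fibroblasts, gave 0.433, 2.99 and 2.97. Those with 0 Pi16 UMIs gave 0.983, 10.2 and 11.7. The interval of that baseline value (0.754 to 1.28) overlapped that of the CNC_AngII macrophages. Smooth muscle cells with a UMI of Igfbp2, an IGF-binding protein, gave 0.345, 4.40 and 2.91, and those without 0.426, 7.81 and 4.21. A further group of cells had UMIs of at least 3 of the 4 endothelial genes Cdh5, Vwf, Cldn5 and Egfl7. Each also had 0 UMIs of Pdgfra and fewer than 5 of Myh11. These cells numbered 45, 31 and 32. They gave 2 Dbp UMIs to 8 of Arntl at baseline, 19 to 2 in SHF_AngII and 12 to 1 in CNC_AngII. They also carried the fibroblast marker Dcn at 934, 1157 and 428 CPM and the smooth muscle marker Acta2 at 537, 1885 and 504 CPM. The endothelial marker Pecam1 stood at 2716, 1515 and 1622 CPM. Whether their Dbp UMIs came from RNA of other classes was not tested.

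**Figure D4:**
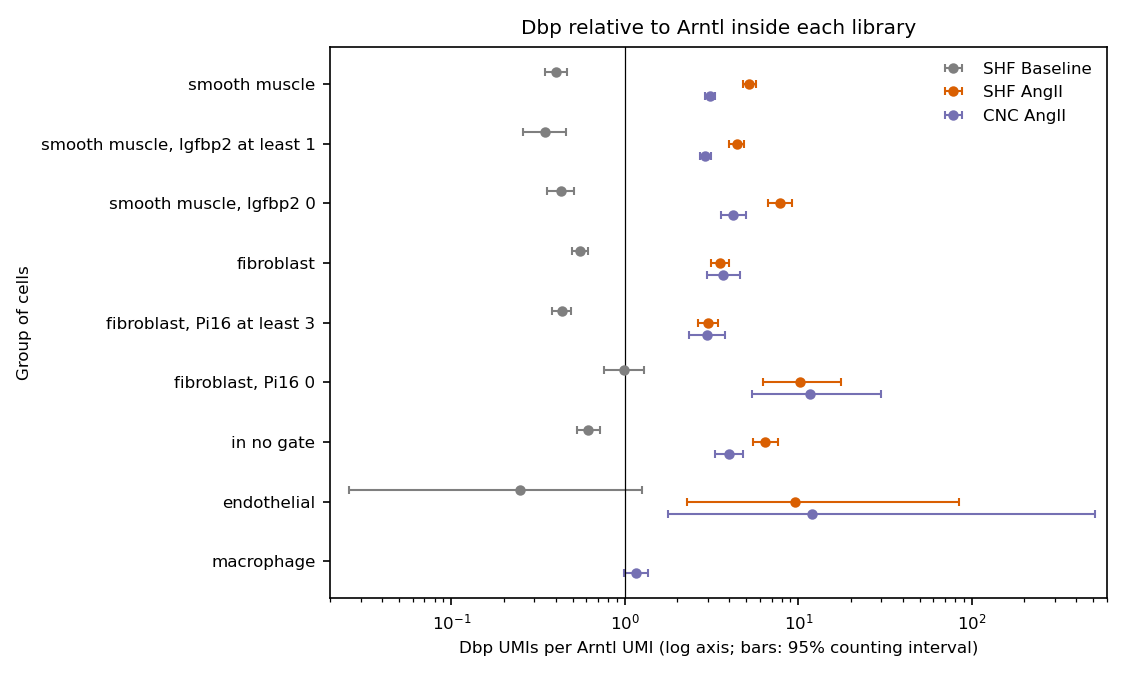
Dbp UMIs per Arntl UMI (log axis) in groups of cells of each library, with 95% counting intervals. The SHF_Baseline values lie between 0.25 and 0.983 and those of both AngII libraries between 1.17, in CNC_AngII macrophages, and 12. The interval of the macrophages overlaps those of some SHF_Baseline groups.

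Other measures moved with the same libraries, and their part in the clock gene differences was not tested. The 7 smooth muscle markers summed to 1305, 4089 and 3998 CPM in fibroblasts. The 7 fibroblast markers summed to 1189, 1446 and 1193 CPM in smooth muscle, with Pdgfra at 0 by the gate, and to 27761, 14623 and 12555 CPM in fibroblasts. The 6 endothelial markers summed to 62.3, 14.1 and 13.9 CPM in fibroblasts and to 12.4, 6.65 and 3.46 CPM in smooth muscle. The 8 macrophage markers summed to 2.61, 1.40 and 343 CPM in smooth muscle and to 9.04, 20.3 and 247 CPM in fibroblasts. The median share of mitochondrial UMIs was 7.36%, 5.44% and 5.16% in smooth muscle and 4.09%, 2.82% and 2.75% in fibroblasts. Of 15 immediate early and stress genes, which tissue digestion is known to induce, 10 were lower past 1.5-fold in SHF_AngII smooth muscle and 14 in fibroblasts, with Ier3 alone higher in both. Of 9 reference genes, Ppia, Pgk1 and Gapdh were higher past 1.5-fold in both classes, Pgk1 by 4.44 and 4.42 on the log2 scale. The shares of all genes tested in smooth muscle and fibroblasts were 18.5% and 30.9% lower and 8.93% and 11.3% higher past 1.5-fold.

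Other regulators of the clock were read beside the shares of all genes lower past 1.5-fold, 18.5% in smooth muscle and 30.9% in fibroblasts. Of 14 further regulators, 9 were tested in smooth muscle and 2 were lower past 1.5-fold (Npas2 and Gsk3b), and in fibroblasts 6 of 9 were (also Rora, Csnk1e, Fbxw11 and Cipc). In both classes 0 were higher past 1.5-fold. Npas2, which can take the place of Clock beside Arntl, stood at 22.0, 7.82 and 7.55 CPM in smooth muscle and at 29.996, 8.64 and 6.85 CPM in fibroblasts. In CNC_AngII macrophages Npas2 had 3 UMIs in all, or 0.145 CPM. The log2 ratio of Npas2 for AngII was -1.49 in smooth muscle (-1.66 to -1.33) and -1.80 in fibroblasts (-1.97 to -1.63). Rora, a receptor that activates Arntl, differed by class: it stood at 105, 114 and 136 CPM in smooth muscle and at 156, 42.6 and 43.4 CPM in fibroblasts. Under TMM scaling the counts of lower regulators were 1 in smooth muscle and 4 in fibroblasts. The shares of 18.5% and 30.9% are those without this scaling. With it, 57.8% and 53.9% of all genes past 1.5-fold were higher.

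Of 10 further clock outputs, 8 were tested in smooth muscle, where 4 were lower past 1.5-fold (Hlf, Nfil3, Usp2 and Nampt). In fibroblasts 9 were tested, of which 6 were lower (Hlf, Nfil3, Usp2 and Nampt again, Bhlhe40 and Bhlhe41) and 2 higher (Wee1 and Noct). Among all genes tested, 18.5% were lower past 1.5-fold in smooth muscle and 30.9% in fibroblasts, and 8.93% and 11.3% were higher. Hlf, a PAR bZIP factor of the same family as Dbp, went the other way from Dbp. It stood at 12.1, 6.04 and 4.19 CPM in smooth muscle and at 23.9, 4.14 and 2.81 CPM in fibroblasts, with log2 ratios of -1.01 (-1.21 to -0.80) and -2.53 (-2.77 to -2.30). Tef, also a PAR bZIP factor, had log2 ratios of 0.53 in smooth muscle, the direction of Dbp, and -0.19 in fibroblasts, both within 1.5-fold. Wee1, a cell cycle kinase known as a clock target, had log2 ratios of 1.11 in smooth muscle, under the minimum, and 1.49 in fibroblasts (1.24 to 1.75). Ciart, whose promoter holds the 3 E-boxes printed above, was under the minimum in every library, at 0.441, 1.63 and 1.23 CPM in smooth muscle and at 0.344, 1.01 and 1.05 CPM in fibroblasts. Its log2 ratios were 1.89 (1.06 to 2.84) and 1.55 (0.64 to 2.57). Under TMM scaling 4 outputs were lower and 1 (Tef) higher in smooth muscle, and 2 were lower and 2 higher in fibroblasts. The shares of all genes above are those without TMM scaling and do not apply to these counts. With it, 57.8% of all genes past 1.5-fold were higher in smooth muscle and 53.9% in fibroblasts.

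Genes induced by glucocorticoids, hormones with a daily rhythm of their own, were mixed. Of 9 tested, 3 were higher past 1.5-fold in both classes (Fkbp5, Zbtb16 and Mt2), while Errfi1 was lower in both and Tsc22d3 and Klf9 in fibroblasts. Of all genes tested, 8.93% were higher past 1.5-fold in smooth muscle and 11.3% in fibroblasts, and 18.5% and 30.9% were lower. Fkbp5, a chaperone of the glucocorticoid receptor, stood at 3.12, 12.3 and 10.8 CPM in smooth muscle and at 18.5, 38.5 and 40.8 CPM in fibroblasts. Its log2 ratios were 1.99 (1.67 to 2.31) and 1.06 (0.93 to 1.19). Per1, which both these hormones and the activating pair of the clock induce, was not higher in either class. The part of these hormones in the differences was not tested.

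Between the AngII libraries the clock genes were close to each other. In smooth muscle 0 of 10 were past 1.5-fold in CNC_AngII over SHF_AngII, with 3.14% of all 8671 genes tested past it. In fibroblasts 1 of 8 was, Per3, lower, with 3.2% of all 9182 genes. The log2 ratio of Per3 was -0.60 in fibroblasts (-0.93 to -0.28) and -0.50 in smooth muscle (-0.71 to -0.30), so it was lower in CNC_AngII in both. The fibroblast value lies just past 1.5-fold and came within it when 8 cells in both the fibroblast and the macrophage gate were left out. Arntl was higher in CNC_AngII by 0.37 in smooth muscle (0.24 to 0.51) and by 0.30 in fibroblasts (-0.03 to 0.62). For Clock the ratios were -0.00 (-0.08 to 0.08) and -0.11 (-0.31 to 0.09).

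Dbp and Nr1d1 differed between the AngII libraries in opposite directions by class, each within 1.5-fold. The log2 ratio of Dbp was -0.38 in smooth muscle (-0.45 to -0.32) and 0.36 in fibroblasts (0.19 to 0.52). That of Nr1d1 was -0.18 (-0.23 to -0.12) and 0.33 (0.16 to 0.50). With cells thinned to 2000 UMIs the fibroblast value of Dbp was -0.05 and with stricter gates it was -0.09. For Per1, Per2, Cry1, Cry2 and Nr1d2 the smooth muscle and fibroblast values lay between -0.28 and 0.20. The sign was the same in both classes for 4 of the 8 clock genes tested in both (all but Per2 and Cry1) and for 58.1% of the 8093 genes tested in both. With Per2 and Cry1 it was the same for 5 of 10. The median log2 ratio of the clock genes was -0.00 in smooth muscle and -0.05 in fibroblasts, beside 0.01 for all genes in each. Of the other regulators 0 were past 1.5-fold, and of the outputs 1 was, Usp2, lower in fibroblasts at -0.62 (-0.90 to -0.35).

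In CNC_AngII, the library with macrophages, Dbp, Nr1d1, Nr1d2 and Cry2 were lower in macrophages than in both other classes, and Per1 and Arntl were not. Nr1d1 stood at 10.4 CPM (9.07 to 11.9) in macrophages, beside 59.3 and 31.8 CPM in smooth muscle and fibroblasts. Cry2 stood at 3.39 CPM (2.64 to 4.28), beside 13.8 and 8.95. Cry1 was at 2.37 CPM, Per2 at 1.41 CPM, Per3 at 3.83 CPM and Nr1d2 at 12.7 CPM, and the macrophage intervals of Cry1 and Per2 overlapped those of the fibroblasts and that of Per3 overlapped that of smooth muscle. Per1 was at 25.9 CPM, above smooth muscle at 17.3 and within counting error of fibroblasts at 24.3. Arntl, at 14.4 CPM (12.8 to 16.1), was above fibroblasts and within counting error of smooth muscle. In the SHF libraries the 8 and 13 cells of that gate held 0 to 5 UMIs of each clock gene, and no comparison was made.

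Over the 7 combinations of library and class, the genes whose log2 level was most like that of Dbp were Prxl2c (Pearson's r = 0.96), Kctd17 (0.94), Cast (0.94), Cyp51 (0.93) and Olfr1033 (0.93), among 3419 genes that passed the rule. Those most like Arntl were Stag2, Pum2, Dennd5a, Kmt2c and Ctsf (0.96 to 0.97). Clock came to 0.89 with Arntl, and Dbp to -0.77. The combinations share libraries, depth and the annotation difference between baseline and AngII tables, and these values are a description.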

How the data were processed

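Single cells were captured with the 10x Chromium 3' v3 kit, per the labels' protocols. The deposited tables hold raw UMI counts per gene and barcode, with no normalisation. The submitters' processing notes name fastp, STAR 2.5, HTSeq 0.6.1 and mm10, and the gene annotation is not given in the sources used here. Genes were matched by name or, for 514, by a unique synonym, and 13 repeated names were left out.

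Barcodes under 500 genes or above 10% mitochondrial UMIs were dropped, and doublets marked by Scrublet (scanpy 1.11.5) were left out (1.96% to 2.61% of the cells it was run on). Counts were summed per library and gate and divided by the UMIs of the common genes, on the CPM scale. Ratios had no pseudocount. Calls needed 1.5-fold, a mean of at least 5 CPM and 100 cells in both libraries. Levels have exact Poisson intervals, ratios conditional binomial intervals and differences of ratios Wald intervals. With 1 library per group no test was made. The script was checked on data simulated with known folds. Positions are GENCODE M21 or RefSeq GRCm38.p6.

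All 10 clock genes are named. Of the other lists, genes past 1.5-fold in both classes or at an end of their list are named by rule, and other named genes were chosen after their values were seen. The genes most like Dbp and Arntl are the 5 highest correlations of log2(CPM + 1), among genes with a mean of at least 20 CPM and a log2 range of at least 1. Of these lists, 2 genes are not reported here. The clock genes and all lists were chosen with earlier results of these data known. The alternatives concern cell filters, gates, scaling, pseudocounts, depth, gene minimum and free RNA, and the centring on the median of all genes was chosen after seeing the data.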

Additional observations from a re-analysis of the deposited data

Results flagged for a closer look

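For 4 results the log2 ratio had opposite signs in smooth muscle and in fibroblasts, each with a counting interval without 0. Whether smooth muscle and fibroblasts differ was not tested, as there is 1 library per group. In SHF_AngII over SHF_Baseline, the ratio in fibroblasts minus that in smooth muscle was -0.95 for Per3 (-1.30 to -0.59) and -0.62 for Nr1d2 (-0.82 to -0.42), both with the higher ratio in smooth muscle. In CNC_AngII over SHF_AngII it was 0.51 for Nr1d1 (0.33 to 0.69) and 0.74 for Dbp (0.56 to 0.92), both with the higher ratio in fibroblasts. The signs depended in part on depth per cell. In fibroblasts with fewer than 10000 UMIs the AngII ratio was 0.36 for Per3 (-0.06 to 0.77) and 0.01 for Nr1d2 (-0.32 to 0.32). Between the AngII libraries Dbp was at -0.11 there (-0.46 to 0.24), while Nr1d1 kept its sign at 0.40 (0.02 to 0.78). The limits given above for scaling, thinning and gates apply here as well.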

How the results depend on the processing

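The 16 alternatives gave 560 values for the 40 ratios of the clock genes, of which 475 lay inside the counting interval of the reported value and 85 outside, and no ratio counted as past 1.5-fold, which needs a mean of at least 5 CPM, changed direction. Over 14 of them the AngII ratio ranged from -1.39 to -0.65 (Arntl, smooth muscle), -1.99 to -1.02 (Arntl, fibroblasts), -0.97 to -0.65 (Clock, smooth muscle), 1.74 to 2.94 (Dbp, smooth muscle) and 0.62 to 1.68 (Dbp, fibroblasts). TMM scaling moved the median of all genes by 0.17 in smooth muscle and 0.27 in fibroblasts, and the share of calls that were higher from 32.6% to 57.8% and from 26.8% to 53.9%. Centring on the median gave 51.3% and 52.0%. In fibroblasts under AngII, 3 clock genes (Clock, Nr1d1 and Dbp) were past 1.5-fold with a gene minimum of 20 CPM, which left 5 to test. Their ratios are unchanged by the minimum. The 42.2% of all genes past 1.5-fold was counted at a minimum of 5 CPM, so it cannot be set beside this count. Between the AngII libraries, 0 were past it in fibroblasts with cells in both gates left out, a pseudocount of 1 or 10 CPM, thinning to 2000 UMIs or a gene minimum of 20 CPM. In smooth muscle 1 was (Per3) under the stricter cell filter and after thinning. The same direction in both classes was then found for 3 of 10 with totals without mitochondrial and ribosomal protein genes and after thinning. The cause was not tested. With 1 library per group, leaving out a replicate was not possible, and animals, preparation and harvest hour have no error estimate. No paired analysis was possible because each group has 1 library.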
